A study of Mus musculus with 4 samples.

Results

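The genes described here are 4 S100 genes (S100a4, S100a6, S100a10, S100a11), 2 annexin genes (Anxa2, Anxa6), 2 galectin genes (Lgals1, Lgals3) and Vim, which encodes vimentin. They were taken by symbol from the gene list of the 4 libraries, as genes known from the effector-like state of CD8+ T cells, and make up 9 of the 32285 genes in the matrices. All 9 member genes were among the 11943 genes with enough counts to be tested between treatments.

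The cells were CD8+ T cells positive for PD-1 and CD44, sorted from the tumor-draining lymph node (TdLN) of C57BL/6 mice carrying B16F10GP flank tumors, a melanoma line that expresses the glycoprotein of lymphocytic choriomeningitis virus. Of the 4 groups, one received radiation to 1 flank tumor together with an antibody blocking PD-L1 (RT + αPD-L1), one radiation alone (RT), one the antibody alone (αPD-L1), and one was left untreated (Control). Treated mice were sampled at day 7, and each group was a single droplet library of 5 mice, whose cells carried 1 of 5 hashtag antibodies. The mouse is therefore the replicate, but library and treatment cannot be told apart, and a p-value measures the spread among mice pooled in 1 library.

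S100 proteins are small calcium-binding proteins of the EF-hand type that act as dimers on other proteins. S100A10 binds annexin A2, and annexins attach to membranes when calcium rises. Galectins bind β-galactoside sugars on glycoproteins inside and outside the cell, and vimentin forms intermediate filaments. In T cells these genes are known as part of the program that antigen-experienced cells keep on and naive cells keep low.

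After filtering and hashtag assignment, 39196 cells were kept, of which 9900 were RT + αPD-L1, 9195 RT, 10930 αPD-L1 and 9171 Control cells. The libraries held 74085176 to 83609377 unique molecular identifiers (UMIs), with medians of 6224 to 6936 UMIs per cell. Several hashtags were seen on 7.49% to 8.96% of filtered barcodes, which were removed, and 809 barcode sequences occurred in more than 1 library. Cells were clustered without any S100, annexin or galectin gene or Vim, and γδ T cell-like and dendritic cell-like clusters (2793 cells) were set aside, leaving 36403 compared cells. A mouse had 130 (RT mouse 4) to 4333 compared cells (RT + αPD-L1 mouse 3). Cd8a stood at 614 to 894 CPM (a gene's count per 1000000 UMIs of the mouse) and Cd4 at no more than 1.67 CPM in every mouse. Summed neutrophil markers were at 0 in all RT + αPD-L1 mice and at most 1.46 CPM in any mouse, summed monocyte markers at most 13.96 CPM and melanoma markers at most 1.49 CPM.

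In the mouse annotation (mm10), the S100 members form pairs on chromosome 3. S100a4 (ENSMUSG00000001020, chr3:90603771-90606045) ends 6836 bases before S100a6 (chr3:90612882-90624181). S100a11 (chr3:93520488-93526287) lies 2896306 bases further on and is 28792 bases from S100a10 (chr3:93555080-93564643), all on the plus strand. Anxa2 is at chr9:69453620-69491795 (plus), Anxa6 at chr11:54979108-55033445 (minus), Lgals1 at chr15:78926725-78930465 (plus), Lgals3 at chr14:47367751-47386160 (plus) and Vim at chr2:13573927-13582826 (plus). Exons of S100a4 share 302 bases with Gm42674 on the same strand, and exons of Anxa2 share 98 bases with the antisense Gm16144, so reads in these stretches are uncertain.

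RefSeq promoters (build GRCm38.p6, 250 bases before to 50 after the start) were matched for 6 of the 9 genes (S100a4, S100a6, S100a11, Anxa2, Lgals3, Vim). They were searched on both strands for the letters TGANTCA (AP-1), TCACACC (T-box), TGTGGT (RUNX), CACCC (KLF) and TTTCGCGC (E2F) and for the interferon-stimulated response element. The 3 chromosome 3 promoters are shown because each held a different one of these motifs, marked in capitals on either strand: KLF letters in S100a4 (chr3:90603520-90603819), RUNX letters in S100a6 (chr3:90612644-90612943) and AP-1 letters in S100a11 (chr3:93520246-93520545), all plus strand.
S100a4: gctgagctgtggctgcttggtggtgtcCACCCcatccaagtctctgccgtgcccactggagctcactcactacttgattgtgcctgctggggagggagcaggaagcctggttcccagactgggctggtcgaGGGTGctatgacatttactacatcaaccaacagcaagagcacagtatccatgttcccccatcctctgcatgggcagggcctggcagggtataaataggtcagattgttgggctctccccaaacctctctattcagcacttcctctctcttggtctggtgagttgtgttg
S100a6: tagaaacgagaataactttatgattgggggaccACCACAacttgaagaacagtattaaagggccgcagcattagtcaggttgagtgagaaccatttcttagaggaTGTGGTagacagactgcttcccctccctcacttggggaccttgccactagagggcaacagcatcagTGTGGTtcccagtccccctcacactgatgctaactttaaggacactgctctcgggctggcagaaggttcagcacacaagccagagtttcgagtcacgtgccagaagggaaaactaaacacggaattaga
S100a11: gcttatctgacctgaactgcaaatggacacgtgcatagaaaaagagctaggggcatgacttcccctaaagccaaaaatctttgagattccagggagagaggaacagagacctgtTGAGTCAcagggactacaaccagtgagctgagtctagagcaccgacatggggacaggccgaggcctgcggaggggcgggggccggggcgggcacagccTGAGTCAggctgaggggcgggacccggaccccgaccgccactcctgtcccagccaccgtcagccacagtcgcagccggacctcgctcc

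The AP-1 letters were in 2 of the 6 member promoters (S100a11 and Anxa2), against 7.81% of all 32851 promoters, and the RUNX letters in 1, against 16.8%. The KLF letters were in 4 of the 6, against 57.5% of all promoters. The T-box, E2F and interferon motifs, present in 3.98%, 0.323% and 3.44% of all promoters, were in 0 of the 6. These are matches of letters only.

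The member genes were highest in the effector-like and cycling cells and low in naive-like cells. The effector-like cluster (5235 cells, led by Ccl5, Ctla2a, Il10ra, Tigit and Itgb1) had a summed level of 7638 ± 783 CPM over the 9 genes, and the cycling cluster (4308 cells) 7395 ± 1432 CPM (SD, n = 19 mice each). Activated cells had 4355 ± 539 CPM (n = 19), LY6A+ stem-like cells (T_STEM-2, by their markers) 3709 ± 771 CPM (n = 10), and naive-like cells 1976 ± 155 CPM (n = 20). The means of effector-like and cycling cells lay within 1 SD of each other. Clusters were described, not tested, since genes that co-vary with the members helped to define them.

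S100a4, whose protein binds non-muscle myosin, and S100a6, the calcyclin gene, had the steepest gradients. S100a4 averaged 525 ± 139.8 CPM in effector-like and 10.1 ± 7.57 CPM in naive-like cells, and within a mouse the effector-like level was 55.4 times the naive-like level (median, range 21.4 to 379.5, n = 19). S100a6 averaged 1281 ± 267 CPM in effector-like and 30.8 ± 8.41 CPM in naive-like cells, a median ratio of 43.7 (range 23.3 to 80.7). How much of the low naive-like level came from free RNA in the droplets was not tested.

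S100a10 and S100a11 were also high outside the effector-like cells. S100a10 averaged 1374 ± 127 CPM in effector-like and 451 ± 45.1 CPM in naive-like cells, a median ratio of 3.005 within a mouse. S100a11 averaged 667 ± 66.6 CPM in effector-like and 255 ± 19.7 CPM in naive-like cells, a median ratio of 2.60. Within the S100 family the ratio between the same cells thus spanned 2.60 to 55.4.

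The annexins differed likewise. Anxa2 averaged 382 ± 46.3 CPM in effector-like and 48.8 ± 14.6 CPM in naive-like cells (median ratio 8.32). Anxa6, an annexin with a duplicated core, had the flattest profile, with 503 ± 39.5 CPM in effector-like and 283 ± 20.5 CPM in naive-like cells (median ratio 1.80). Each of the 19 mice with both clusters had the higher level in effector-like cells for every member.

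Lgals1, a prototype galectin gene whose product forms dimers, averaged 1394 ± 157 CPM in effector-like and 290.0 ± 55.8 CPM in naive-like cells (median ratio 5.15). Lgals3 averaged 94.1 ± 26.9 CPM in effector-like and 6.17 ± 4.50 CPM in naive-like cells (median ratio 19.0). Vim averaged 1418 ± 162 CPM in effector-like and 601 ± 50.8 CPM in naive-like cells (median ratio 2.32). The naive-like cells thus kept measurable Vim, S100a10 and Anxa6.

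**Figure D1:**
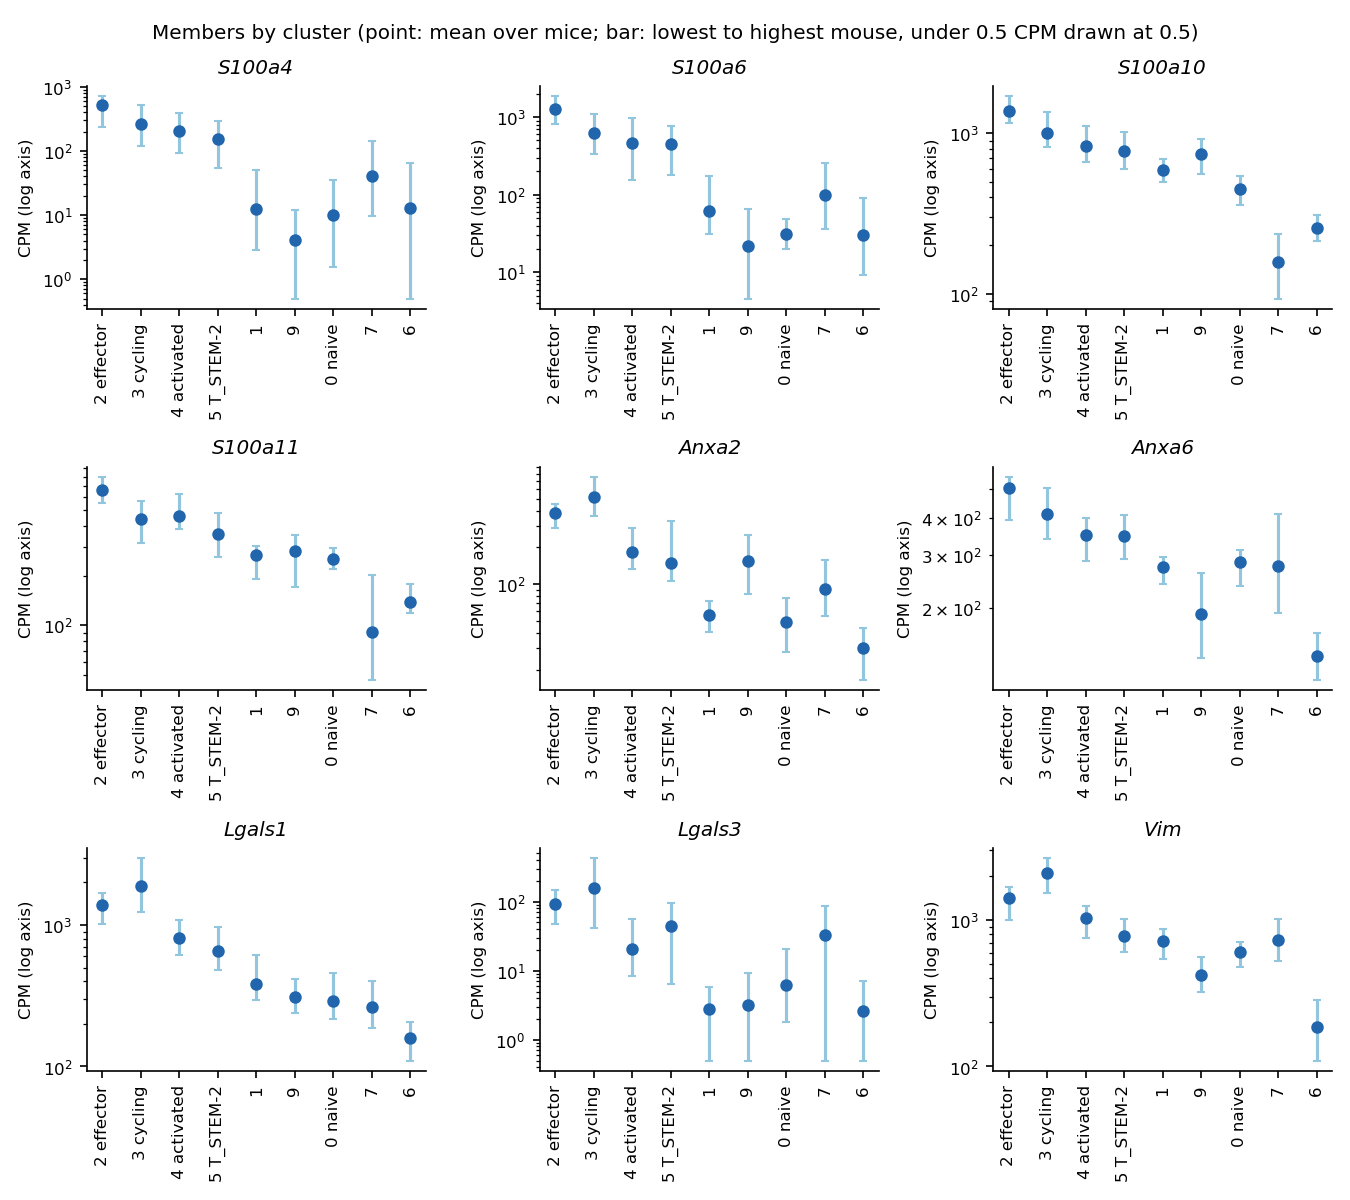
Level of each member gene (CPM, log axis) in 9 clusters of CD8+ T cells; points are means over mice and bars run from the lowest to the highest mouse. S100a4 and S100a6 drop by more than 10-fold between the effector-like and naive-like clusters, while Anxa6 stays within 1.80-fold at the median, and Anxa2, Lgals1, Lgals3 and Vim peak in cycling cells.

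Relative to all UMIs, effector-like and cycling cells were high in different members. Within a mouse, S100a6 was 2.28 times as high in effector-like as in cycling cells (median, higher in 18 of 19 mice), S100a4 2.05 times (17 mice), S100a11 1.497 times (19 mice), S100a10 1.37 times (19 mice) and Anxa6 1.24 times (16 mice). The other members ran the other way, with ratios of 0.81 for Lgals1 (higher in cycling cells in 18 mice), 0.75 for Lgals3 (14 mice, range 0.193 to 2.47), 0.74 for Anxa2 (19 mice) and 0.70 for Vim (19 mice). In CPM, all 4 S100 genes were thus on the effector-like side and Lgals1 and Vim on the cycling side. The annexins were split and Lgals3 varied between mice. The median cycling cell had 2.46 times the UMIs of its library's median cell, and the median effector-like cell 0.965 times. All 4 S100 genes and Anxa6 had more UMIs in the 4308 cycling than in the 5235 effector-like cells (S100a6 48428 against 42041). Per cell, their order was therefore the reverse.

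Cycling cells made up 11.8% of the compared cells and 23.8% of their UMIs, but held 71.0% of Lgals3, 57.2% of Anxa2, 54.0% of Lgals1 and 48.0% of Vim UMIs. Effector-like cells, with 14.4% of cells and 12.2% of UMIs, held 36.8% of S100a4 and 35.6% of S100a6 UMIs. Cycling cells held more of both genes, 41.1% of S100a4 and 41.0% of S100a6 UMIs. Naive-like cells were 19.95% of cells and held 0.7% of S100a4 and 1.0% of S100a6 UMIs. A level summed over all cells of a mouse therefore moves with the shares of these clusters, and a change in cell numbers cannot be told apart from a change in RNA per cell at that level.

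A finer clustering (20 clusters) set apart 474 cells led by Gzma, Gzmb, Klrg1 and Gzmk. This cluster was chosen here because its summed member level was the highest, so that rank is no result. They carried cytotoxic granule genes, with Havcr2 (TIM-3) also among the leading 10, and 299 of them came from RT + αPD-L1, 63 from RT, 85 from αPD-L1 and 27 from Control mice. In the main clustering 82.9% of them were in the cycling and 15.6% in the effector-like cluster. Their summed member level was 17404 ± 2519 CPM (SD, n = 5 mice with at least 20 such cells).

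Lgals1 averaged 5134 ± 830.3 CPM, Lgals3 1021 ± 235 CPM and Vim 3227 ± 735 CPM in these cells. For Anxa2, Anxa6, Lgals1, Lgals3 and Vim this was the highest mean of the 19 clusters with enough cells, which the choice by summed level favours. The means of the 4 S100 genes were higher in a γδ T cell-like cluster. With 1.30% of the compared cells and 2.50% of their UMIs, they held 30.0% of Lgals3, 13.1% of S100a6 and 12.1% of Lgals1 UMIs. Of these cells 269 came from RT + αPD-L1 mouse 3.

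Across cells thinned to 3000 UMIs, all 36 pairs of members had a positive Spearman rho. These values describe 8128 RT + αPD-L1, 7725 RT, 9184 αPD-L1 and 7864 Control cells, each set of which shares a library, and are given without a p. The neighbours S100a4 and S100a6 had the highest rho, 0.52 (mean of the 4 libraries, range 0.50 to 0.54), followed by Lgals1 and Vim with 0.48, and Anxa2 and Lgals1 with 0.45. Anxa6 and Lgals3 had the lowest, 0.15. The other chromosome 3 neighbours, S100a10 and S100a11, had 0.32.

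The pairs held inside clusters where the genes were on. In effector-like cells S100a4 and S100a6 had a rho of 0.53 and Lgals1 and Vim 0.51. In cycling cells the leading pairs were S100a6 with Lgals1 (0.63), Lgals1 with Vim (0.62) and Anxa2 with Lgals1 (0.62). In naive-like cells the highest was 0.18, for Lgals1 and Vim. At 3000 UMIs the median cell of a mouse had 6 to 8 UMIs of all members together, and rho in such sparse counts is low.

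**Figure D2:**
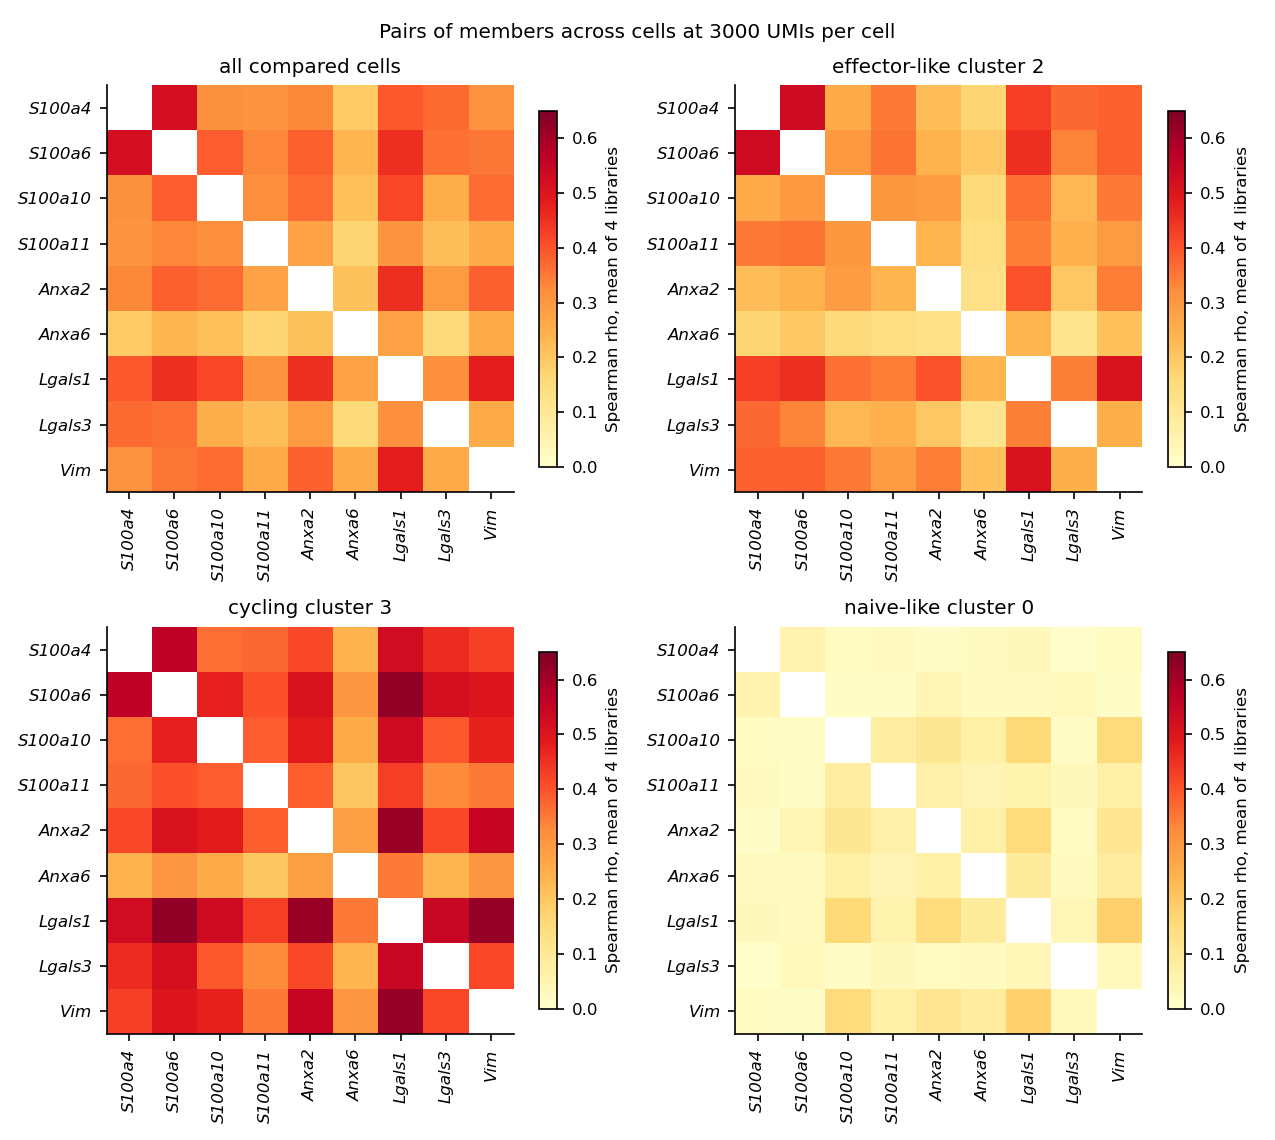
Spearman rho between member genes across cells thinned to 3000 UMIs, as the mean of the 4 libraries, in all compared cells and in 3 clusters; darker is higher. S100a4 with S100a6 (0.52 in all cells) and Lgals1 with Vim (0.48) stand out, cycling cells reach 0.63, and naive-like cells stay at or below 0.18.

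Other genes were ranked by how closely their level across cells followed the summed members. Among 5854 genes ranked, the highest mean rho belonged to Tmsb4x (0.57), which encodes the actin monomer-binding thymosin β4, and to Crip1 (0.55), a LIM-domain protein gene. Actb (0.50) and Actg1 (0.43), both cytoplasmic actins, came next, then the integrin gene Itgb1 (0.41), Capg (0.39), Sh3bgrl3 (0.38), Pfn1 (0.37), Coro1a (0.37) and Ahnak (0.36). The lowest were all ribosomal protein genes, Rps24 (-0.44), Rpl13 (-0.40), Rps15a (-0.37), Rpl36 (-0.37) and Rps7 (-0.36). Against the sum of the other members, Lgals1 had the highest rho (0.60) and Anxa6 the lowest (0.32), and Lgals3 was below the detection limit of 5% of cells set for ranking.

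Between treatments, no member passed the test in any of the 6 comparisons, and the 5 mice of one group overlapped those of the other for every member in all 5 pairwise comparisons. In RT + αPD-L1 over Control, edgeR called 0 of the 9 members at an adjusted p under 0.05, against 8.39% of all genes tested. At an unadjusted p under 0.05 it had 1 of 9 (S100a6), against 22.8% of all genes, while 5.25% of all genes had mice that did not overlap. DESeq2 and limma-trend also called 0, with 1 and 0 at an unadjusted p. The members' median log2 fold change was 0.03, with 6 of 9 positive, and that of all genes was near 0.

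In RT + αPD-L1 over Control, S100a6 had the lowest adjusted p of the members. RT mice had 237, 402, 556, 272 and 242 CPM, and αPD-L1 mice 352, 488, 398, 438 and 413 CPM. RT + αPD-L1 mice had 591, 449.6, 545, 379 and 338 CPM, against 288, 316, 418, 336 and 329.7 CPM in Control mice. RT + αPD-L1 mice 4 and 5 lay among the Control mice, and the RT mice spread from below the lowest Control mouse to above all RT + αPD-L1 mice but 1. The RT + αPD-L1 over Control log2 fold change was 0.46 ± 0.22 (SE, n = 5 each, adjusted p = 0.219), between 0.37 and 0.56 over 33 alternatives.

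Its neighbour S100a4 had 196, 174, 154, 147 and 186 CPM in RT + αPD-L1 mice, 111 to 186 CPM in RT mice and 123 to 169 CPM in αPD-L1 mice, against 133, 108, 168, 155 and 158 CPM in Control mice. All groups overlapped, and the RT + αPD-L1 over Control log2 fold change was 0.26 ± 0.15 (adjusted p = 0.319).

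Lgals3, which encodes the chimera-type galectin, was the most scattered member. In RT mice it was at 26.0, 58.8, 65.8, 17.7 and 23.5 CPM. It had 42.1, 69.8, 128, 29.1 and 62.1 CPM in RT + αPD-L1 mice and 23.9, 115, 89.9, 51.4 and 52.4 CPM in αPD-L1 mice, against 32.6, 48.6, 39.7, 45.0 and 36.7 CPM in Control mice. Control mice were tight, whereas every treated group held mice below and above them, with the highest mice in the antibody-treated groups. The log2 fold change was 0.80 ± 0.44 (95% interval -0.13 to 1.73, adjusted p = 0.3005) in RT + αPD-L1 over Control and 0.78 ± 0.44 (adjusted p = 0.460) in αPD-L1 over Control.

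The part of cluster shares in the Lgals3 levels was not tested. RT + αPD-L1 mouse 3, the highest of its group, had 44.2% T_STEM-2 and 13.5% cycling cells, and αPD-L1 mouse 2 had 17.2% cycling cells, whereas αPD-L1 mouse 3, at 89.9 CPM, had 8.12%. Without cycling cells the αPD-L1 over Control value was 0.11 and that of RT + αPD-L1 over Control 0.79, and without T_STEM-2 cells they were 0.79 and 0.96. No member was called in either setting.

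RT + αPD-L1 mouse 3 held 269 of the 474 cells of the Gzma+ Gzmb+ cluster described above. Leaving that cluster out, Lgals3 stood at 42.1, 55.8, 57.2, 23.4 and 57.4 CPM in RT + αPD-L1 mice and 23.9, 84.7, 79.1, 48.6 and 40.2 CPM in αPD-L1 mice, against 32.2, 37.6, 38.6, 44.2 and 36.7 CPM in Control mice. The group ranges still overlapped, and mouse 3 no longer stood apart from the other RT + αPD-L1 mice. Since the cluster was chosen for its high member levels, a fall in mouse 3 was built into this step.

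The remaining members differed little between RT + αPD-L1 and Control mice. The fold was 1.05 for S100a10 (95% interval 0.920 to 1.19), 1.02 for S100a11 (0.898 to 1.16), 0.963 for Anxa2 (0.722 to 1.28), 1.01 for Anxa6 (0.925 to 1.11), 0.997 for Lgals1 (0.757 to 1.31) and 0.935 for Vim (0.846 to 1.03). The intervals were narrowest for Anxa6 and Vim and widest for Lgals1 and Anxa2. Anxa6 was the steadiest member, with 327 ± 15.9 CPM in RT + αPD-L1, 315 ± 33.5 CPM in RT, 331 ± 25.2 CPM in αPD-L1 and 326 ± 17.5 CPM in Control mice (SD, n = 5 each).

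**Figure D3:**
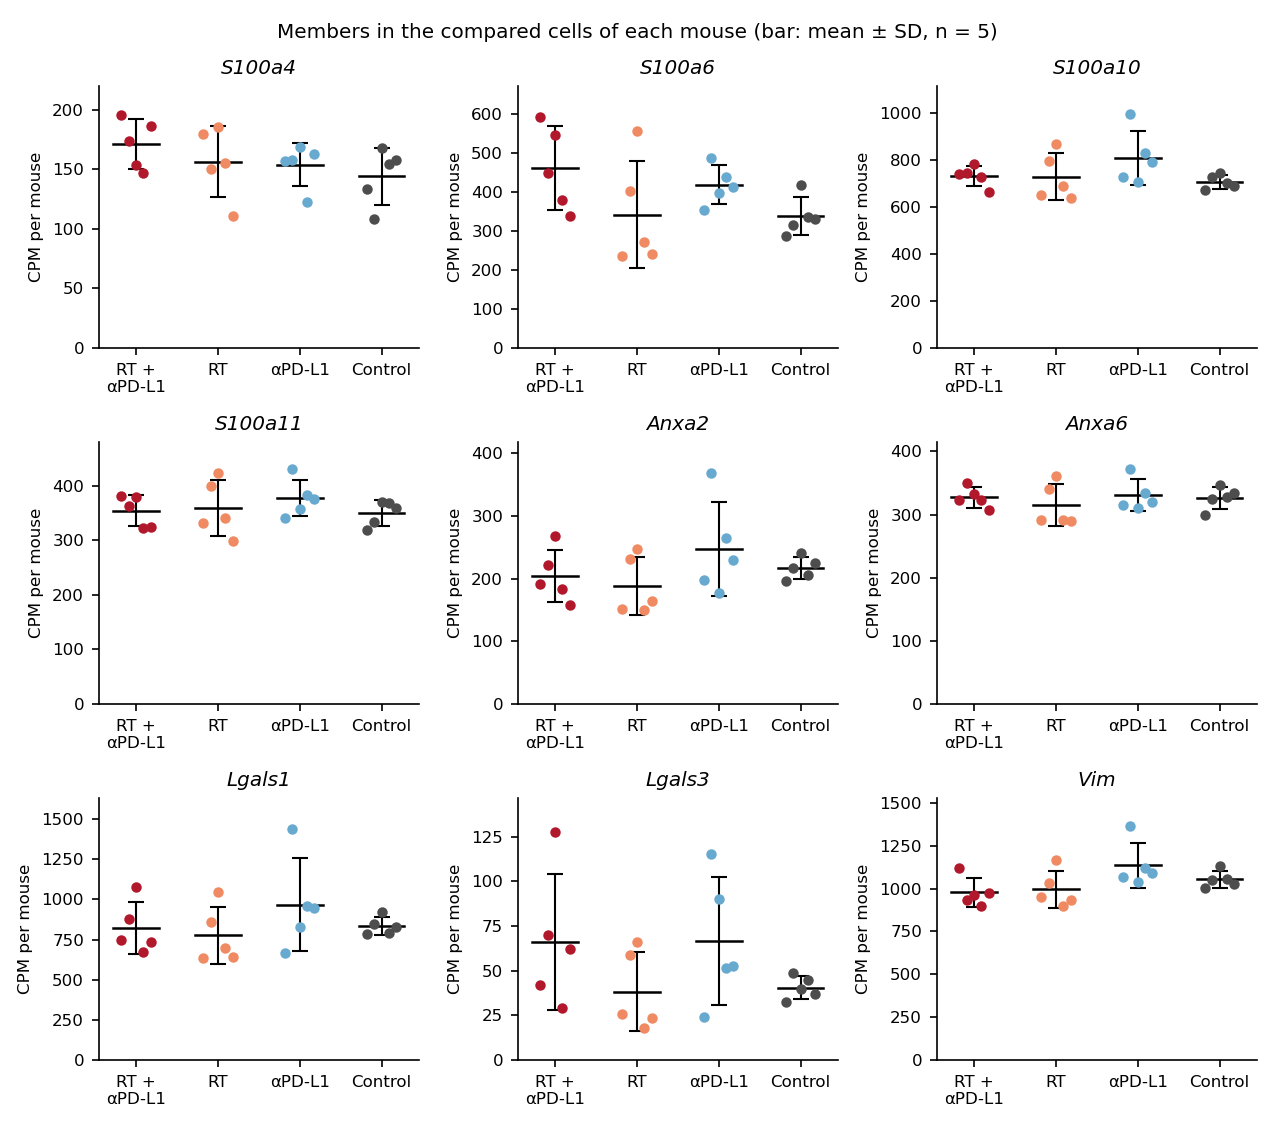
CPM of each member gene in the compared cells of every mouse (points), with the mean ± SD of 5 mice, for RT + αPD-L1, RT, αPD-L1 and Control. The groups overlap in every panel, Control mice are close together for Lgals1 (835 ± 54.1 CPM) and Lgals3 (40.5 ± 6.36 CPM), and αPD-L1 mouse 2 is the highest point for Lgals1 and Vim.

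In αPD-L1 over Control, edgeR called 0 of 9 members, against 0.419% of all genes. All 9 log2 fold changes were positive, with a median of 0.20. S100a10 had an unadjusted p under 0.05, the 1 member of 9, against 13.6% of all genes; 3.99% of all genes had mice that did not overlap. DESeq2 and limma-trend called 0 members, with 1 each at an unadjusted p. These comparisons share the Control mice with the preceding one. S100a6 had a log2 fold change of 0.32 ± 0.22 (adjusted p = 0.581).

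S100a10, the light chain partner of annexin A2, had 728, 997, 707, 832 and 795 CPM in αPD-L1 mice, against 673, 729, 747, 701 and 691 CPM in Control mice. αPD-L1 mice 1 and 3 lay within the Control range and the other 3 above it. The log2 fold change was 0.20 ± 0.09 (95% interval 0.01 to 0.38, adjusted p = 0.331). Anxa2 itself had 198, 369, 178, 264 and 229.5 CPM in αPD-L1 mice, against 196, 217, 241, 206 and 225 CPM in Control mice, with mouse 2 alone far above.

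αPD-L1 mouse 2 was high for most members. Its Lgals1 level was 1441 CPM, with 664, 827, 961 and 946 CPM in the other αPD-L1 mice, against 787, 848, 921, 793 and 827 CPM in Control mice. Its summed members were 5735 CPM, against 3730.3 to 4387 CPM in Control mice. Its share of cycling cells, 17.2%, was the highest of all 20 mice, and its part in these levels was not tested.

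RT alone over Control gave 0 of 9 calls by edgeR, against 0.109% of all genes, and 0 at an unadjusted p under 0.05, against 9.25%. DESeq2 and limma-trend called 0, both with 0 at an unadjusted p. Among all genes 3.37% had mice that did not overlap. Log2 fold changes ran from -0.17 for Anxa2 to 0.12 for S100a4. RT mice 2 and 3 were the upper RT mice for 8 of the members: Lgals1, for example, had 636, 862, 1048, 695 and 643 CPM in RT mice 1 to 5.

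**Figure D4:**
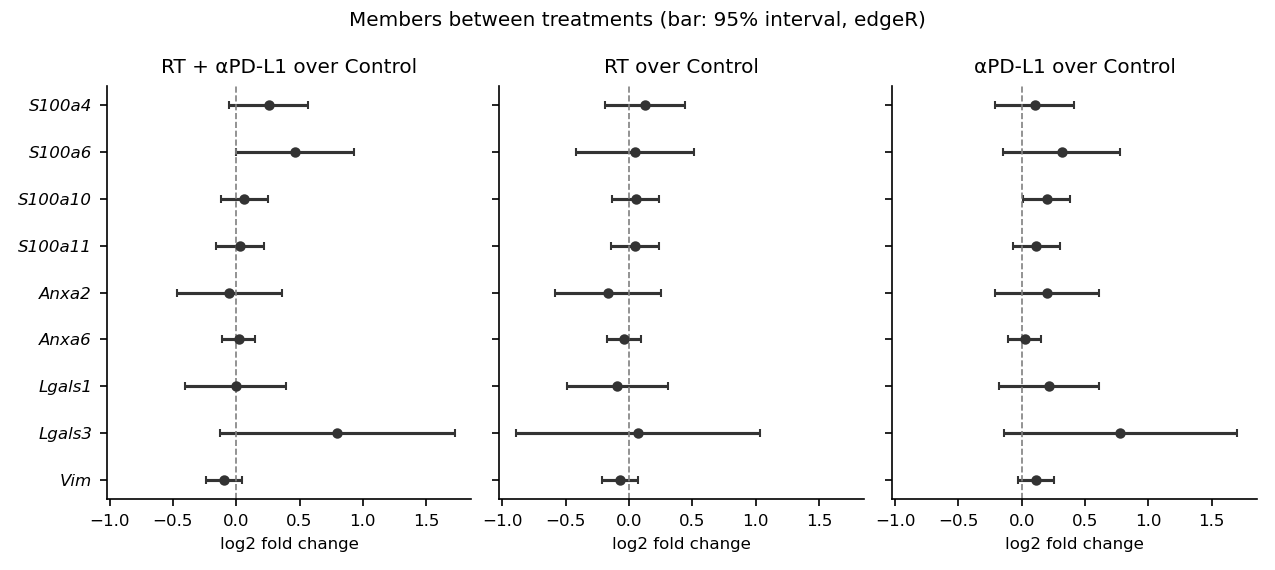
Log2 fold change (edgeR) of each member gene for RT + αPD-L1, RT and αPD-L1 over Control, with 95% intervals and a dashed line at 0. S100a6 in RT + αPD-L1 mice (0.46) and S100a10 in αPD-L1 mice (0.20) have lower bounds at or just above 0, and Lgals3 has the widest intervals.

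RT + αPD-L1 over RT gave 0 of 9 calls, against 2.75% of all genes, with 0 members at an unadjusted p under 0.05 (15.3% of all genes) and 2.68% of all genes not overlapping. DESeq2 called 0 with 0 at an unadjusted p, and limma-trend 0 with 1. S100a6 had a log2 fold change of 0.41 ± 0.22 (adjusted p = 0.405) and Lgals3 0.73 ± 0.45 (adjusted p = 0.490). RT + αPD-L1 over αPD-L1 gave 0 of 9 calls, against 2.12%, with 1 member at an unadjusted p under 0.05 (12.2% of all genes) and 1.78% not overlapping. DESeq2 and limma-trend called 0, each with 1 at an unadjusted p.

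That member was Vim, with 1119.8, 933, 964, 898 and 976 CPM in RT + αPD-L1 mice, against 1065, 1366, 1041, 1123 and 1093 CPM in αPD-L1 mice. RT + αPD-L1 mouse 1 was the one mouse inside the αPD-L1 range. The log2 fold change was -0.21 ± 0.07 (95% interval -0.36 to -0.07, adjusted p = 0.142), and without RT + αPD-L1 mouse 1 it was -0.26 with an adjusted p of 0.0453. Exact permutation tests, two-sided and uncorrected, were run for each of the 9 members in each of the 5 pairs of groups. The exact permutation test gave p = 0.0317 for Vim in RT + αPD-L1 over αPD-L1. For S100a6 the exact permutation test gave p = 0.0476 in RT + αPD-L1 over Control and p = 0.0397 in αPD-L1 over Control. These 3 cases were the only ones under 0.05, a threshold that chance passes in about 1 in 20 tests. A few such cases thus arise by chance among this many tests, and the 3 are no evidence of a change in Vim or S100a6.

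Whether the log2 effects of RT and αPD-L1 added up in the combination was tested with an interaction contrast. It gave 0 of 9 calls by edgeR, against 0.461% of all genes, and 0 members at an unadjusted p under 0.05, against 11.1%. DESeq2 and limma-trend gave 0 calls and 0 at an unadjusted p. The values ran from -0.19 for S100a10 to 0.10 for S100a6.

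Within single clusters, 8 clusters had enough cells in at least 3 mice of every group, giving 408 tests of members. Of these, 4 passed at an adjusted p under 0.05 (0.98%), against 0.437% of all gene tests in the same fits. Lgals1 gave 2 of the 4 and S100a11 another, each lower in RT + αPD-L1 cells than in the group compared. The last was S100a10 in the interaction contrast, where the combination lay below the sum of the single effects. Of 68 member tests in each comparison, 41 were below 0 in RT + αPD-L1 over Control, 47 over RT and 53 over αPD-L1, with 19 in αPD-L1 over Control and 32 in RT over Control. Of all genes, 49.6% to 50.5% were below 0 in these comparisons. The members co-vary, the clusters come from the same mice, and the comparisons share groups. The counts below 0 are therefore not independent, were not tested and are no result about the members as a set. The T_STEM-2 cluster, 2742 of whose 3185 cells came from RT + αPD-L1 mice, could not be fitted.

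Lgals1 in naive-like cells was lower in RT + αPD-L1 mice. RT mice had 255, 275, 248, 461 and 289 CPM, where the highest, RT mouse 4, rests on 28 cells, and αPD-L1 mice 254, 305, 258, 306 and 307 CPM. Lgals1 had 251, 248, 216, 233 and 249.8 CPM in RT + αPD-L1 mice, against 328, 337, 363, 317 and 299 CPM in Control mice. The log2 fold change was -0.48 ± 0.07 (adjusted p = 3.7e-05), where 1.26% of genes passed in that cluster, and it stayed between -0.51 and -0.44 when each mouse was left out. The call was lost with limma-trend (adjusted p = 0.094) and in the matching cluster of a finer clustering (-0.31, adjusted p = 0.30).

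Over αPD-L1, Lgals1 in naive-like cells had a log2 fold change of -0.29 ± 0.07 (adjusted p = 0.0207), where 0.708% of genes were called. The call held in 15 of 20 omissions of a mouse, with adjusted p up to 0.171 without RT + αPD-L1 mouse 3 or 4 or αPD-L1 mouse 2, 4 or 5, and was lost with DESeq2 (adjusted p = 0.18), with limma-trend and in the matching clusters of a finer clustering (-0.15, adjusted p = 0.807) and of one from all variable genes (-0.26, adjusted p = 0.296). The difference from Control was not called in RT (-0.25, adjusted p = 0.082) or αPD-L1 mice (-0.19, adjusted p = 0.266).

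The other calls were in an unnamed cluster of 6003 cells led by H2-Oa, Gm14085, Slc6a19 and Capn3, in which 0.509% of genes passed in RT + αPD-L1 over RT and 0.271% in the interaction contrast. S100a11 had 284, 229, 190.4, 237 and 217 CPM in RT + αPD-L1 mice, against 298, 299, 303, 305 and 249.9 CPM in RT mice, with RT + αPD-L1 mouse 1 above the lowest RT mouse. The log2 fold change was -0.37 ± 0.08 (SE, adjusted p = 0.0344), and the call held in 8 of 20 omissions, with values of -0.44 to -0.29. It was lost without RT + αPD-L1 mouse 2, 3, 4 or 5, RT mouse 1, 2, 3 or 4, αPD-L1 mouse 1 or 5, or Control mouse 3 or 5, with adjusted p up to 0.143. In the matching cluster of a coarser clustering it was -0.16 (adjusted p = 0.475), and in that from all variable genes -0.31 (adjusted p = 0.0627).

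S100a10 in the same cluster had 495, 526, 546, 584 and 569.9 CPM in RT + αPD-L1 mice, 592, 646, 646, 689.6 and 557 CPM in RT mice, 654, 620.4, 585, 637 and 616 CPM in αPD-L1 mice and 589.9, 547, 583, 618 and 510.2 CPM in Control mice. Both single treatments were above Control on average and the combination was not. The interaction was -0.33 ± 0.07 (adjusted p = 0.0172) and was called in 16 of 20 omissions, lost without RT mouse 2 or 3, αPD-L1 mouse 4 or Control mouse 2. It was also lost with limma-trend (adjusted p = 0.094) and with a coarser (0.153) or finer clustering (0.101).

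**Figure D5:**
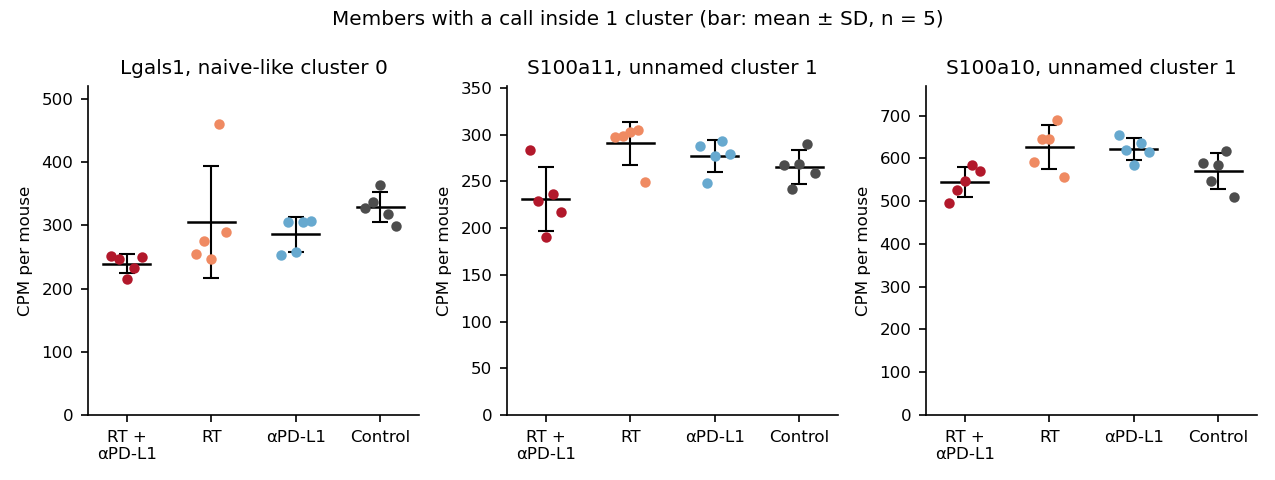
CPM per mouse (points, mean ± SD of 5 mice) of Lgals1 in the naive-like cluster and of S100a11 and S100a10 in an unnamed cluster, for RT + αPD-L1, RT, αPD-L1 and Control. For Lgals1 the RT + αPD-L1 mice are at 216 to 251 CPM and the Control mice at 299 to 363 CPM.

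Of 31 other S100, annexin and galectin genes, 15 were tested, and 3 rose in RT + αPD-L1 mice over Control (8.39% of all genes called), RT (2.75%) and αPD-L1 (2.12%): Lgals3bp, Lgals8 and Lgals9. Over RT, Lgals3bp was called in 14, Lgals8 in 12 and Lgals9 in 5 of 20 omissions of a mouse, and over αPD-L1 Lgals3bp was called in 17, Lgals8 in 6 and Lgals9 in 14. Each of these calls was lost without RT + αPD-L1 mouse 2 or 3. The group's median over Control was -0.01, and 0 fell. Lgals3bp, which encodes a secreted glycoprotein bound by galectin-3, had 59.1, 168, 229, 112 and 121 CPM in RT + αPD-L1 mice, against 58.2, 67.9, 70.7, 48.6 and 81.0 CPM in Control mice (log2 fold change 1.13 ± 0.26, adjusted p = 0.0153). RT + αPD-L1 mouse 1, which had 0.419% T_STEM-2 cells, lay among the Control mice and the other 4 above them.

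Lgals9, a tandem-repeat galectin, had 181, 307, 345, 230.1 and 226 CPM in RT + αPD-L1 mice, against 181, 184, 184, 166 and 205 CPM in Control mice (0.52 ± 0.14, adjusted p = 0.0278). Mouse 1 was again at the Control level. The call was lost in 6 of 20 omissions (RT + αPD-L1 mouse 2 or 3, or Control mouse 1, 2, 3 or 4). Lgals8, also of the tandem-repeat kind, had 22.7, 31.3, 30.3, 22.5 and 24.9 CPM in RT + αPD-L1 mice, against 17.8, 20.1, 17.998, 21.1 and 22.4 CPM in Control mice (0.47 ± 0.10, adjusted p = 0.00625).

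The share of T_STEM-2 cells was 33.1% and 44.2% in RT + αPD-L1 mice 2 and 3, 0.419% in mouse 1 and 5.51% at most in Control mice. Its part in the levels of Lgals3bp, Lgals9 and Lgals8 was not tested. RT + αPD-L1 mouse 1 was at the Control level for Lgals3bp and Lgals9 but above every Control mouse for Lgals8. Without T_STEM-2 cells the log2 fold change over Control was 0.83 (adjusted p = 0.034) for Lgals3bp, 0.26 (adjusted p = 0.042) for Lgals9 and 0.20 (adjusted p = 0.139) for Lgals8. Lgals1 and Lgals3, the galectins among the members, were not called in either setting.

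Of 14 listed surface partners of galectins, annexins and S100 proteins, 11 were tested. In RT + αPD-L1 over Control 1 of the 11 was called, where 8.39% of all genes were called. Cd47, the ligand of SIRPα and of thrombospondin, rose in RT + αPD-L1 mice, with 327, 438, 512, 358 and 369.5 CPM, against 298, 314, 298, 277 and 319 CPM in Control mice (0.43 ± 0.10, adjusted p = 0.0144). Every RT + αPD-L1 mouse was above every Control mouse, and 5.25% of all genes had mice that did not overlap in this comparison. The other 10 tested, among them Ptprc, Cd44, Itgb1 and Lag3, were not called over Control.

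Among 34 cytoskeleton and membrane genes of antigen-experienced T cells, which include most of the genes that followed the members across cells, 3 rose and 2 fell in RT + αPD-L1 over Control, where 8.39% of all genes were called. Itga4, the α4 integrin chain, had the largest rise (0.43), called in all 20 omissions. Msn and Glipr2 rose by 0.17 each. The Msn call held in 16 omissions (lost without RT + αPD-L1 mouse 2 or 3 or Control mouse 1 or 2) and the Glipr2 call in 9, and without T_STEM-2 cells their adjusted p was 0.192 and 0.208. Cotl1, an actin filament-binding protein gene, fell by 0.23 (adjusted p = 0.00687) and Lmna, the lamin A/C gene, by 0.53 (adjusted p = 0.0168, and 0.109 without T_STEM-2 cells). Cotl1 had 469, 461, 436, 479 and 439.6 CPM in RT + αPD-L1 mice, against 539, 535, 533, 563 and 538 CPM in Control mice, with no overlap. Among all genes 5.25% had mice that did not overlap. The fall of Cotl1 was not particular to the combination. In αPD-L1 over Control it was -0.24 by edgeR (adjusted p = 0.0275, called in 14 of 20 omissions), where 0.419% of all genes were called.

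Of 27 effector and memory genes, 9 rose in RT + αPD-L1 over Control, where 8.39% of all genes were called, and 0 fell. The list's median was 1.08, among them Klrd1 (0.52), Ctsw (0.28) and Ly6c2 (1.29), beside a median of 0.03 for the 9 members. Of 14 naive and resting genes, Il7r alone rose (0.90) and 0 fell. Without RT + αPD-L1 mouse 3, 6 of the 9 calls were lost (Ccl5, Ccr2, Gzmb, Itga1, Klrg1, Prdm1), and those of Ctsw, Klrd1 and Ly6c2 held in all 20 omissions of a mouse.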

How the data were processed

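Single-cell RNA-seq was measured in 4 10x libraries of sorted TdLN CD8+ T cells. The deposited matrices hold UMI counts per gene and barcode and hashtag counts, not normalized, which the authors made with Cell Ranger on mm10. The paper's methods and the matrix headers name different Cell Ranger versions.

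Barcodes with more than 10% mitochondrial counts, fewer than 500 or more than 5000 genes, or more than 40000 UMIs were removed. A cell was given to a mouse when 1 hashtag exceeded the emptiest point between the modes of its counts. HTODemux (Seurat 5.3.0), which the study used, was an alternative, and 98.8% to 100.0% of cells that both methods assigned went to the same mouse. The methods differed in how many cells they assigned. HTODemux gave 99 compared cells against 800 for RT mouse 1, 416 against 2002 for Control mouse 1 and 2214 against 4333 for RT + αPD-L1 mouse 3. Some mice had more cells with HTODemux, such as RT + αPD-L1 mouse 1 with 526 against 477. Removing barcodes with several hashtags left doublets of 1 mouse in place, and no doublet caller was run. Cells were clustered (scanpy 1.11.5, Leiden resolution 0.6, 2000 variable genes, 20 components) without the member families. Clusters were called by fixed markers, and those with too few stayed unnamed.

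Counts were summed per mouse and tested with edgeR 4.0.16 (quasi-likelihood, TMM, all 20 mice in 1 fit, two-sided, Benjamini-Hochberg over all genes tested). Clusters were tested likewise in mice with at least 20 cells there. The study's Wilcoxon tests over cells were not used, since cells are not replicates. Alternatives were DESeq2 1.42.0, limma 3.58.1, upper-quartile factors, no filter on low counts, other cell sets and clusterings, and each mouse left out. Cells were thinned to 3000 UMIs for correlations. Every member was described, with the other family genes, the listed partners, and the 10 genes highest and 5 lowest in rho with the summed members; examples from the cytoskeleton, effector and naive lists were chosen after their values were seen. The members and lists were chosen with earlier results of these data known. The scripts were tested on simulated data.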

Additional observations from a re-analysis of the deposited data

Results flagged for a closer look

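The 9 member genes gave 36 sets of 5 mice, and in 2 of them 1 mouse lay far from the rest; chance flags about 1 in 20 such sets. Vim in αPD-L1 mouse 2 was at 1366 CPM, where the nearest αPD-L1 mouse had 1123 CPM, a gap of 0.748 of the group's range. That mouse had the highest share of cycling cells. S100a4 in αPD-L1 mouse 4 was at 123 CPM, where the nearest αPD-L1 mouse had 157 CPM, a gap of 0.744 of the range.

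In the unnamed cluster led by H2-Oa, the effect of adding RT on S100a10 differed between mice with and without αPD-L1. The combination was -0.33 on the log2 scale from the sum of the single effects (edgeR, adjusted p = 0.0172).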

How the results depend on the processing

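Members were called 0 times in 31 of 32 settings with fits over all genes. The exception was the omission of RT + αPD-L1 mouse 1, after which 1 member (Vim) was called over αPD-L1; leaving out single mice gave 0 to 1 calls. Of 54 member values, 32 lay within 1 SE of 0. Among 1773 values under alternatives 108 changed sign, of which 0 had a main value beyond 1 SE.

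The alternatives within clusters, and the omission of the low-depth cluster, were chosen after seeing the data. In the naive-like cluster and the unnamed cluster led by H2-Oa, the 4 calls of members became 0 with limma-trend, 16 without a filter on low counts, 2 at Leiden resolution 1 and 2 to 8 with single mice left out. The S100a11 call over RT had an adjusted p of 0.00217 with DESeq2 and 0.069 with limma-trend. The cause was not tested. At resolution 0.3 all 9 effector-like levels moved by more than their spread over mice, and at 1.0 0 of 9 did. Thinning to 2000 UMIs moved 33 of 36 pairs by more than the SD of the libraries.

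No paired analysis was possible because a hashtag number names a different mouse in each library. RT mouse 4, with 130 compared cells, limits the precision of RT, and UMI counts near 0, as for Lgals3 in naive-like cells, limit what can be seen there.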

Other observations

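High levels of the member genes were also found outside the compared cells. A small γδ T cell-like cluster of 578 cells, led by Trdv4, Cd163l1, Il17a and Blk, had a summed level of 16426 ± 1608 CPM (SD, n = 12 mice), against 7638 ± 783 CPM in effector-like cells (n = 19). S100a6 averaged 4105 ± 434 CPM and S100a4 2072 ± 271 CPM there, against 1281 ± 267 and 525 ± 139.8 CPM in effector-like cells. Anxa6, with 495 ± 56.1 CPM in the γδ-like and 503 ± 39.5 CPM in effector-like cells, was about level. In the finer clustering this cluster had a mean of 16255 CPM, below the 17404 CPM of the Gzma+ Gzmb+ cells, which were chosen for the highest sum. The sort selected CD8+ cells, and how these cells passed it was not tested.

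At the clustering used for the comparisons, the lowest summed level, 954 ± 125 CPM (n = 19), was in an unnamed cluster of 2929 cells led by Srm, Xcl1 and Tnfrsf9, below the 1976 ± 155 CPM of naive-like cells (n = 20). The median cell of this unnamed cluster had 1.84 times the UMIs of its library's median cell, against 0.777 times for naive-like cells. A lower CPM there need not mean fewer member UMIs per cell. Genes induced by activation thus led both a cluster at 4355 ± 539 CPM and one at the bottom of the CPM order.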
